A study of Mus musculus with 4 samples.

Results

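The RNAs described are short reads that end in CCA, the 3 bases that complete the 3′ end of a mature tRNA, in small RNA libraries from 4 mouse cell populations. A member is a unique sequence that ends in CCA and shares no exact stretch of 16 bases with any of the 1064 mature miRNA sequences in the authors' table. The rule kept 19611 of 887350 unique sequences, with 634021 of 24308937 reads. Of these sequences, 995 were present in all 4 libraries and held 93.2% of the reads, while 13087 were seen as a single read.

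All cells came from the C57BL/6J strain, and each population is represented by 1 library. HSC are c-Kit+ Sca1+ Lineage- bone marrow cells obtained by sorting. The immature dendritic cells (imDC) were grown from marrow progenitors in GM-CSF (10 ng/mL) and IL-4 (1 ng/mL) and harvested on day 6. The mature dendritic cells (maDC) had the same cytokines, LPS at 10 ng/mL from day 4, and CD11c bead selection at day 8. The regulatory dendritic cells (DCreg) began as maDC, spent 7 days or more on endothelial-like splenic stromal cells without stated cytokines, and were then selected on CD11c beads, so they share the earlier LPS exposure and had the longest culture. The labels give an age of 5 to 6 weeks for mice whose femur marrow was cultured, in a protocol text attached to all 4 libraries, and no other age for the HSC donors. With no replicate of any population there is no test, and a difference between libraries cannot be told apart from a difference between preparations. Intervals are exact 95% intervals that cover counting error only, since no molecular identifiers tell PCR copies from separate molecules. In RNA from whole populations, fewer cells of a type and less RNA per cell cannot be told apart.

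In mouse cells the CCA tail is not written in the nuclear tRNA genes. The enzyme TRNT1 adds it after the precursor is trimmed, and the amino acid is later attached to its last A. Cleavage of a mature tRNA in its T loop, the loop nearest the 3′ end, leaves a short 3′ fragment with the tail at its end. Such fragments are known as tRF-3, with a shorter and a longer size class, and members of the longer class have been found bound to Argonaute proteins. In the usual tRNA numbering the tail ends at position 76, the base just before it (73) is called the discriminator, and the A at position 58 in the T loop is often methylated.

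The members were placed in 8020 groups by their last 12 bases, numbered E1 onward by the mean level over the 4 libraries, where a level is in reads per 1000000 reads of the file (rpm). The commonest 22-nt reads of the 10 highest groups and of E14 are printed first, since most of the reads and the main difference in length lie in them. Capitals mark the base at position 58 and the tail.
E1, 22 nt: tcgAaaccgggcggaaacaCCA
E2, 22 nt: tcaAtccccggcatctccaCCA
E3, 22 nt: tcgTttccggctcgaaggaCCA
E4, 22 nt: tcgTttcccgggcggcgcaCCA
E5, 22 nt: tcgTttcccggccaacgcaCCA
E6, 22 nt: tcgTttcccggccaatgcaCCA
E7, 22 nt: tcaGgtcacgtcggggtcaCCA
E8, 22 nt: tcgAatcctgccgactacgCCA
E9, 22 nt: tcgAatcccatcctcgtcgCCA
E10, 22 nt: tcaAatcccggacgagcccCCA
E14, 22 nt: tcgTttcccggcccatgcaCCA

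Shorter reads of the same groups lack the opening bases. A 22-nt read begins at position 55, an 18-nt read at position 59, just after position 58, and a 17-nt read at position 60. The following reads are shown because they were the commonest of E1, E2 and E3 at those lengths, with the tail in capitals.
E1, 17 nt: accgggcggaaacaCCA
E1, 18 nt: aaccgggcggaaacaCCA
E2, 18 nt: tccccggcatctccaCCA
E3, 17 nt: tccggctcgaaggaCCA

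The group ends were set beside tRNA genes of the RefSeq annotation (GRCm38.p6), which lists 430. The last bases of 15 of them, 13 distinct ends, could be read from GENCODE transcripts or RefSeq promoter windows of overlapping genes. None of the 15 is followed by CCA in the genome. A group was given a gene when at least 50% of its reads equalled that gene's end, apart from position 58. Other genes with the same end cannot be told apart from those named.

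E1 had the end of n-TVcac9, a valine tRNA gene with anticodon CAC (GRCm38 chr13:23446142-23446214, minus strand). E4 had the end of n-TGccc7, a glycine tRNA gene (chr17:25875088-25875158, plus strand) that overlaps an exon of Mettl26. E8 had the shared end of the serine tRNA genes n-TSaga9 (chr4:10874064-10874145, plus strand), n-TStga1 (chr13:23518146-23518227, plus strand) and n-TStga2 (chr13:21924935-21925016, minus strand). E9 had the end of another serine tRNA gene, n-TSgct5 (chr13:22050686-22050767, minus strand). GENCODE exons of Gm44456 and Gm48356 overlap n-TStga2 and n-TSgct5, and the end of n-TVcac9 lies in the RefSeq promoter window of Gm46404. The last 30 bases of these genes, with the A at position 58 in capitals, show the sequence to which the tail is joined.
n-TVcac9: aggtccccggttcgAaaccgggcggaaaca
n-TGccc7: gcgacccgggttcgAttcccgggcggcgca
n-TSaga9: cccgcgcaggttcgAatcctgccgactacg
n-TSgct5: cacgcgtgggttcgAatcccatcctcgtcg

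Further down the ranking, E16 matched n-TAagc16, E17 n-TLaag4, E24 n-TRtcg5, E36 n-TNgtt7 and E55 n-TItat14, genes for alanine, leucine, arginine, asparagine and isoleucine tRNAs. Reads whose 12 bases before the tail end a readable nuclear tRNA gene made up 42.1% of member reads in HSC, 40.5% in imDC and 50.0% in maDC, and 56.4% in DCreg. E2, E3, E5, E6 and E7 matched none of the readable ends and are given no gene name. E10 shares its last 12 bases with the tailed end of n-TPtgg2, a proline tRNA gene. Reads with that gene's 12 bases before the tail numbered only 0, 1, 1 and 0 from HSC to DCreg. E10 is therefore given no gene name either.

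CCA was the commonest 3-base end in every library among reads without a miRNA stretch. It closed 19.0% of these reads in HSC (18.9% to 19.1%), 16.1% in imDC and 12.3% in maDC, and 16.7% in DCreg. The second commonest of the 64 possible ends, GTT, closed 9.98%, 8.64%, 7.57% and 7.36% in the same order. The median end closed between 0.858% and 1.07%. The labels say that reads matching tRNA had been filtered, and the deposited files nonetheless hold these reads.

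Features of tRNA that the rule did not use were frequent among the members. At the place of the discriminator, A was found in 89.8% of member reads in HSC, 83.9% in imDC and 85.7% in maDC, and 89.7% in DCreg, against 23.9% to 26.0% at the same place in the other reads without a miRNA stretch. The T-loop motif TTCNANNC, searched on the read strand only, begins 23 bases from the 3′ end of a tailed tRNA, so a 22-nt read holds all but its first T. Of 22-nt members, 98.3%, 96.8%, 97.0% and 95.1% carried at least 3 of the other 4 fixed bases at their places, from HSC to DCreg. Among the other 22-nt reads the shares were 2.39%, 1.74%, 1.53% and 0.932%. All 4 bases were present in 33.2%, 28.7%, 31.0% and 30.0% of 22-nt members, against 0.0657% to 0.311% of the other 22-nt reads. This 22-nt version of the search was chosen after seeing the data.

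The search first planned used reads of at least 23 nt and the exact motif. These were few, 882 reads in HSC, 1958 in imDC and 2080 in maDC, and 788 in DCreg. The motif was at its place in 15.8%, 4.90%, 3.85% and 10.3% of them. With 1 fixed base free to differ, as in the 22-nt search, the shares were 26.4%, 10.6%, 6.78% and 22.7%, against 0.422% to 0.664% of the other reads of these lengths. Of members of at least 28 nt, the 5 bases before the T loop could pair with the 5 after it in 5 of 18 reads in HSC, 6 of 35 in imDC and 21 of 140 in maDC, and 21 of 53 in DCreg. Among the other reads of that length the share was 0.926% to 2.06%. With 1 base free, the T-loop motif was thus less frequent in the few members of at least 23 nt than in those of 22 nt.

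Not every member is a tRNA end. Members found whole inside a GENCODE transcript made up 2.04% of member reads in HSC, 3.48% in imDC and 5.80% in maDC, and 4.84% in DCreg. Members within 2 substitutions of a mature miRNA made up 1.06%, 2.28%, 0.617% and 0.286%.

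Member reads numbered 184176 in HSC, 185719 in imDC and 114350 in maDC, and 149776 in DCreg, out of 6277096, 6554086, 6572858 and 4904897 reads in the files. Their level was 29341 rpm in HSC (29207 to 29475), 28336 in imDC (28208 to 28466) and 17397 in maDC (17297 to 17498), and 30536 in DCreg (30382 to 30691). HSC, imDC and DCreg were thus near each other, and maDC was low. The level in maDC was 0.614 times that in imDC (0.609 to 0.619), and the level in DCreg 1.76 times that in maDC (1.74 to 1.77).

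The levels depended on the shortest reads. Purification on the gel aimed at 18 to 30 nt, but the files hold reads down to 16 nt. When only members of 18 to 30 nt were kept, the DCreg level was 1.03 times that in maDC and 0.543 times that in imDC, against 1.08 times with all lengths. The diversity of members differed as well. After each file was thinned to 4904897 reads, HSC held 6443 member sequences, imDC 7461, maDC 4736 and DCreg 4503.

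The length of the members was the feature that differed most plainly among the libraries. HSC members were mainly 22 nt long, and DCreg members mainly 17 or 18 nt, with imDC and maDC between them. The 22-nt share was 66.3% in HSC, 51.2% in imDC and 33.9% in maDC, and 7.53% in DCreg (7.40% to 7.66%). The share of 17 and 18 nt together was 21.4%, 32.5%, 54.2% and 82.8%. Reads of 17 nt, below the gel range, were 54.9% of members in DCreg and 10.5% in HSC.

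**Figure D1:**
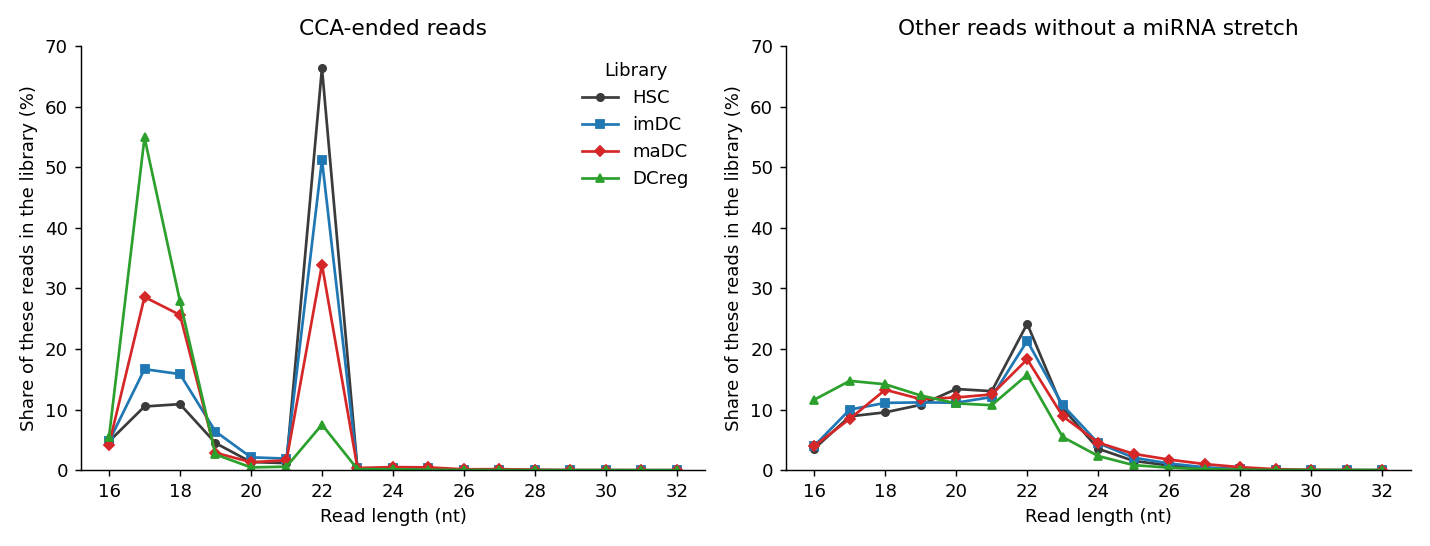
Share of reads (%) at each read length (nt) in each of the 4 libraries, for the CCA-ended members and for the other reads without a miRNA stretch. Among the members the 22-nt peak is 66.3% in HSC and 7.53% in DCreg, and the 17-nt peak is 10.5% in HSC and 54.9% in DCreg.

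Both size classes differed in level, not only in share. The 22-nt members stood at 19466 rpm in HSC, 14508 in imDC and 5899 in maDC, and 2299 in DCreg. That is 8.47-fold lower in DCreg than in HSC (8.30 to 8.63). Members of 17 and 18 nt stood at 6286, 9219, 9429 and 25272, which is 4.02-fold higher in DCreg than in HSC (3.98 to 4.07). Between imDC and maDC the short class was nearly level, at 1.02 times, while the 22-nt class was 2.46-fold lower in maDC.

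Long members of 30 nt or more, the size expected of a tRNA cut at its anticodon, were nearly absent. They numbered 0 of 184176 reads in HSC, which allows a share of up to 0.00163%, 4 in imDC and 28 in maDC, and 35 in DCreg. A gel window that ends at 30 nt lies beside these counts, and its part in them was not tested.

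Length moved less in the other reads. Among reads without a miRNA stretch that do not end in CCA, the 22-nt share was 24.2% in HSC, 21.3% in imDC and 18.3% in maDC, and 15.7% in DCreg, and the share of 16 to 18 nt was 22%, 25.1%, 25.8% and 40.6%. Among reads with a miRNA stretch the 22-nt share was 57.6%, 51.4%, 64.4% and 59.5%. The share of 16 to 18 nt in them was 1.39%, 2.37%, 0.329% and 1.09%. DCreg was therefore the library richest in very short reads outside the miRNAs as well, and the part of library preparation or RNA quality in this was not tested.

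The difference in length was also seen inside single groups. Of 27 groups with at least 100 reads in each library and a 22-nt share of at least 5% in 1 of them, 24 had a lower 22-nt share in imDC than in HSC. The share was lower in maDC than in imDC in 26 of 27, and lower in DCreg than in maDC in 27 of 27. The median 22-nt share of the 27 groups was 52.4% in HSC, 37.4% in imDC and 19.2% in maDC, and 4.68% in DCreg. The 27 may not all be separate, since E15, E32 and E38 lie within 1 base of E1, and E16 and E33 of E2. The 5% condition rests on the same share that is compared. E21 met it in HSC alone, with 9.57%, 3.87%, 2.65% and 0.169% from HSC to DCreg, so its order lends nothing to the counts. Groups made in the same way from the other reads without a miRNA stretch had a lower share in 78, 58 and 81 of 133 in the same comparisons. Groups of reads with a miRNA stretch had one in 112, 68 and 81 of 186. The median 22-nt share of the 133 other groups was 52.1%, 36.4%, 39.8% and 22.2% from HSC to DCreg. It was thus also lowest in DCreg. Within these groups the median change was −0.470, 0.357 and −0.758 points in the same comparisons. Within the CCA-ended groups it was −7.63, −9.66 and −14.9 points.

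Which groups were abundant also counted. With the group mix of HSC applied to every library, over 28 groups, the 22-nt share would be 67.2% in HSC, 56.6% in imDC and 49.4% in maDC, and 27.3% in DCreg. As found, the same groups gave 67.2%, 51.9%, 34.6% and 7.45%. The difference in the overall 22-nt share was thus larger than that at a fixed mix of groups.

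**Figure D2:**
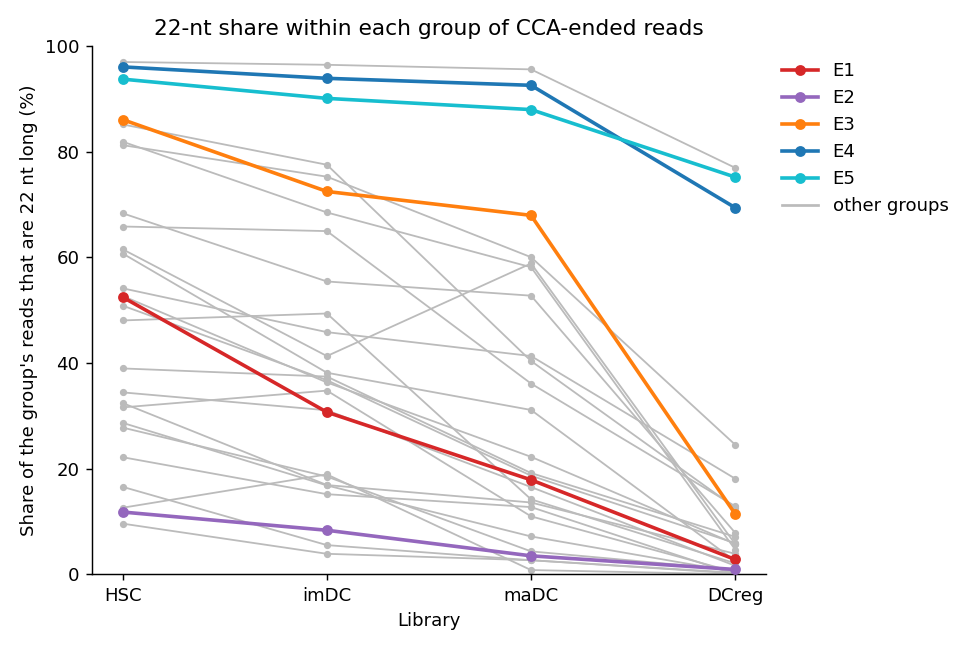
Share of each group's reads that are 22 nt long (%) in the 4 libraries, 1 line for each of 27 groups of CCA-ended reads, with E1 to E5 coloured. E15, E16, E32, E33 and E38 are neighbours of E1 or E2. Every line is lower in DCreg than in maDC, and E4 and E5 stay high, at 69.4% and 75.2% in DCreg, where E1 is at 2.79%.

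Groups kept different lengths. In E1, the valine end, 52.4% of HSC reads, 30.7% of imDC reads, 17.9% of maDC reads and 2.79% of DCreg reads were 22 nt long. In E8, one of the serine ends, the shares were 68.3%, 55.4%, 52.7% and 7.85%. E3 went from 86.0% in HSC to 72.5%, 67.9% and 11.4%. In all 3 the 22-nt reads were the majority in HSC and a small minority in DCreg.

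E4, E5 and E6, whose 22-nt reads open with the same bases, were mostly 22 nt in every library. In E4, the glycine end, the 22-nt share was 96.0%, 93.9%, 92.5% and 69.4% from HSC to DCreg. In E5 it was 93.7%, 90.1%, 88.0% and 75.2%, and in E6 97.0%, 96.4%, 95.6% and 76.9%. E2 was mostly short throughout, with 11.8%, 8.32%, 3.48% and 0.902% at 22 nt. The level of 22-nt E4 reads was nonetheless 4.10-fold lower in DCreg than in HSC, and that of 22-nt E6 reads 15.8-fold lower.

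Of the 8020 groups, 102 reached 10 rpm in at least 1 library, and they held 95.5% of member reads. The 6 highest groups held 78.1% of member reads in HSC, 69.3% in imDC and 72.9% in maDC, and 78.9% in DCreg. E1 alone held 26.8%, 27.7%, 36.3% and 48.8%.

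E1 stood at 7871 rpm in HSC, 7857 in imDC and 6323 in maDC, and 14906 in DCreg. Its level in DCreg was 2.36-fold that in maDC (2.33 to 2.39), while the other 3 libraries lay close together. The 2 sizes of E1 went opposite ways. Its 22-nt reads stood at 4127, 2410, 1129 and 416 rpm, 9.92-fold lower in DCreg than in HSC, and its 17- and 18-nt reads at 3313, 4741, 4832 and 13585, 4.10-fold higher. With members of 18 to 30 nt only, E1 was at 0.630 times its maDC level in DCreg, so the direction turned. Against imDC it went from 1.90 times to 0.358 times.

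E2 stood at 2624, 2276, 2294 and 5425 rpm, from HSC to DCreg. Like E1, it was level in 3 libraries and higher in DCreg, 2.36-fold over maDC. It ranked second in maDC and DCreg, where its commonest read, of 18 nt, held 67.3% and 71.1% of it.

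E3 stood at 4000, 4455, 1823 and 2206 rpm, E7 at 904, 1252, 508 and 330. Both were lower in maDC than in imDC, by 2.44-fold for E3 and 2.46-fold for E7. E3 in DCreg rested on its 17-nt reads: DCreg was at 1.21 times maDC with all lengths and at 0.429 times with members of 18 to 30 nt. E8 stood at 649, 684, 443 and 501, and E9 at 389, 400, 340 and 326. These 2 serine ends stayed within 2-fold in the 4 comparisons made.

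E4, E5, E6 and E14, whose 22-nt reads open with tcgT and share the next 7 bases, were each highest in HSC and lowest in DCreg. E4 stood at 2970 rpm in HSC, 1764 in imDC and 1284 in maDC, and 1001 in DCreg. E5 stood at 3507, 2086, 607 and 401, which is 5.20-fold lower in DCreg than in imDC. E6 stood at 1945, 1214, 357 and 156, which is 7.80-fold lower in that comparison.

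E14, the lowest of these 4, stood at 420, 357, 80.6 and 7.54 rpm. It was 47.4-fold lower in DCreg than in imDC (34.3 to 67.4), on 37 reads in DCreg and 2342 in imDC. As printed above, these groups differ only in the bases before the tail. Of the 4, E4 kept the most of its level and E14 the least. The smaller groups E110, E129 and E134 have the same opening and lie within 1 base of a group at least 10 times larger, and of these E129 and E134 were highest in imDC, at 11.1 and 11 rpm. They differ from E4 and E5 by G68T and A68T, at place 14 of a 22-nt read. E110, highest in HSC, differs from E5 by A68C at the same place. Single substitutions there in the 10 commonest miRNA reads were 1.05% in imDC and at most 0.167% in the other libraries. Their part in these groups was not tested.

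**Figure D3:**
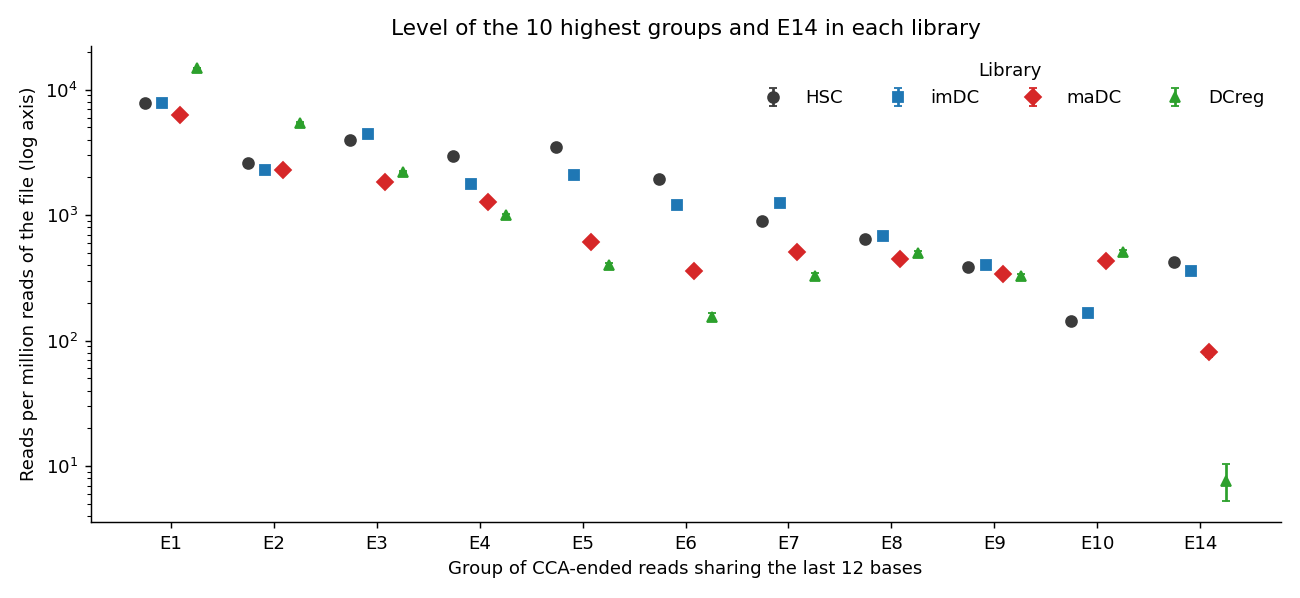
Level in rpm (log axis) of the 10 highest groups of CCA-ended reads and of E14 in the 4 libraries, with exact 95% Poisson intervals. E1 and E2 are highest in DCreg (14906 and 5425), E4, E5, E6 and E14 are highest in HSC and lowest in DCreg, and E14 reaches 7.54 in DCreg.

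E10 stood at 143, 166, 430 and 505 rpm and was 2.59-fold higher in maDC than in imDC. It is the least certain of the 10, since 69.3% of its reads are found whole in a GENCODE transcript, among them one of the unprocessed pseudogene Gm15280. Without the members found whole in a transcript, a version added after seeing the data, E10 was 1.31 times as high in maDC as in imDC and 0.723 times as high in DCreg as in imDC.

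A group was called different when its level differed at least 2-fold and reached 10 rpm in either library, with 0 reads set to a floor of 3 reads. Of 90 CCA-ended groups compared between imDC and HSC, 30 were higher in imDC, or 33.3%, where 41.1% of the groups of all reads without a miRNA stretch were. Lower in imDC were 6, or 6.67%, against 18.2%. The median log2 ratio was 0.46 in the CCA-ended groups and 0.61 in all groups. The higher share lay below that of all groups, so nothing sets the members apart in that direction.

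Between maDC and imDC, 7 of 89 groups were higher in maDC, against 19.9% of all groups, and 52 were lower, or 58.4%, against 44.4%. The median log2 ratio was −1.44, and −0.70 in all groups. Among the lower groups were E3, E5, E6, E7 and E14.

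Between DCreg and maDC, 32 of 73 groups were higher in DCreg, or 43.8%, against 40.4% of all groups. Lower were 10, or 13.7%, against 23.4%. Scaled to reads without a miRNA stretch in place of all reads, 20 groups were higher and 12 lower. E1 and E2 were among the higher, and with that scaling they fell short of the 2-fold mark, at 1.83 and 1.84 times.

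Between DCreg and imDC, 19 of 94 groups were higher in DCreg, against 33.7% of all groups, and 46 were lower, or 48.9%, against 41.9%. The median log2 ratio was −0.96, and −0.34 in all groups. Comparisons that share a library are not independent of each other.

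Many smaller groups lay next to a larger group or a miRNA. Of the 102 groups, 32 were within 1 base of a group at least 10 times larger, and 8 were mostly made of reads within 2 substitutions of a mature miRNA. Without these 39 groups, a version added after seeing the data, 18 were higher and 1 was lower of 54 between imDC and HSC, and 6 higher and 32 lower of 57 between maDC and imDC. Between DCreg and maDC 21 were higher and 10 lower of 53, and between DCreg and imDC 12 were higher and 29 lower of 61. The shares were 33.3% higher and 1.85% lower, 10.5% and 56.1%, 39.6% and 18.9%, and 19.7% and 47.5%. Lower groups outnumbered higher ones in maDC against imDC and in DCreg against imDC in both versions, as they did over all groups, whose shares given above were not recomputed without neighbours.

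Several of the largest ratios belonged to such neighbours. E94 had 1 read in HSC, 144 in imDC and 2 in maDC, and 0 in DCreg, and E141 had 1, 76, 0 and 2. Each is 1 substitution from miR-23a-3p, a miRNA whose own reads can also end in CCA. Their commonest reads show this, with the place of position 58 and the tail in capitals as above.
E94, 22 nt: atcAcattgccagtgatttCCA
E141, 22 nt: atcAcattgccagcgatttCCA

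E94 was 138-fold higher in imDC than in HSC by these counts, with an interval of 24.4 to 5485, since a single HSC read stands under it. E84 (15, 143, 3 and 3 reads) differs by 1 base from E3, E68 (130, 16, 16 and 37) from E1, and E151 (68, 0, 0 and 0) from E5. E151 was 23.7-fold lower in imDC than in HSC with its 0 imDC reads set to the floor, and at least 18.7-fold lower by the exact interval. E84 was high in imDC alone, and E68 and E151 in HSC.

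Mitochondrial tRNAs, which also receive their CCA after transcription, were rare but differed between libraries. All 22 had at least 1 read. Together they had 62 reads in HSC, 109 in imDC and 404 in maDC, and 30 in DCreg, or 9.88, 16.6, 61.5 and 6.12 rpm. The level was 3.70-fold higher in maDC than in imDC (2.98 to 4.61) and 10.0-fold lower in DCreg than in maDC. maDC, low in the members as a whole, was thus the highest library here.

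Most of the maDC excess lay in a few of them. mt-Tv, the valine tRNA (GRCm38 chrM:1025-1093, plus strand), had 3, 23, 153 and 1 reads, and mt-Td, the aspartate tRNA (chrM:6942-7011, plus strand), had 1, 1, 86 and 2. mt-Tw had 8, 3, 45 and 1. mt-Tv was 6.63-fold higher in maDC than in imDC (4.26 to 10.8). For mt-Td the 2 lone reads of HSC and imDC leave the size of the difference open to a wide interval, as in group E128, whose ratio of maDC to imDC was 89.7 (15.7 to 3584). The commonest reads of their groups, E80 and E128, carry the end of each tRNA.
E80 (mt-Tv), 18 nt: caatgaacactctgaCCA
E128 (mt-Td), 19 nt: TaatctatatatcttaCCA

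Other groups picked by their ratio had no tRNA name. E42 had 6, 23, 159 and 393 reads from HSC to DCreg, 22.8-fold higher in DCreg than in imDC (15 to 36.4), and E100 had 3, 17, 5 and 81. Neither was found whole in a GENCODE transcript, and whether their CCA is an added tail was not determined. E116 had 0, 2, 9 and 69 reads and is found whole in the mitochondrial ribosomal RNA mt-Rnr1, so its CCA need not be an added tail. Among the 63 groups left after the neighbours were set aside, the largest ratios of imDC to HSC belonged to E22 (18.4, from 41 and 787 reads) and E23 (14.6, from 87 and 1323). Of E22 reads, 97.2% lie whole in Gm42418, which GENCODE labels a lincRNA, so their CCA need not be an added tail either. These high ratios thus include groups that are not ends of a named tRNA.

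The base at position 58 varied within groups far more than its neighbours. Over the 22-nt reads of E1 from all 4 libraries, 39.3% had another base than A there, and at no other position between 55 and 64 did more than 0.706% differ from the commonest base. In E8 the share was 15.8% at 58 and up to 0.872% elsewhere, and in E9 51.6% and up to 2.84%. In E10 it was 54.3% and up to 0.784%. Among the gene-matched groups lower in the ranking, E17 had 41.6%, E24 52.1% and E36 54.5%.

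In some groups the base read most often was not the base of the gene. The commonest 22-nt read of E4 differed from n-TGccc7 by A58T (the gene's base, the position, then the read's base), and that was its only difference. The same single substitution A58T separated E24 from n-TRtcg5 and E36 from n-TNgtt7. No substitution separated the commonest read from the gene in E1, E8, E9, E16 and E17. In E4, E5 and E6, 10.7%, 29.4% and 34.5% of reads had another base than the T at 58, and at most 1.77% differed at any other position.

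Not all groups had this pattern. E16, the alanine end, had 3.49% at position 58 and 4.89% at position 61. E2, E7 and E55 varied at a second place too, with 31.6% at 57 in E2 and 33.2% and 28.1% at 59 in E7 and E55. E3 had 14.8% at 58 and 7.02% at 59. A group joins every tRNA with the same last 12 bases, so several tRNAs may be read together in these. In 22-nt miRNA reads, single substitutions at the same place of the read, the 4th, were 0.166% in HSC, 0.128% in imDC and 0.0964% in maDC, and 0.0890% in DCreg, over the 10 commonest.

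**Figure D4:**
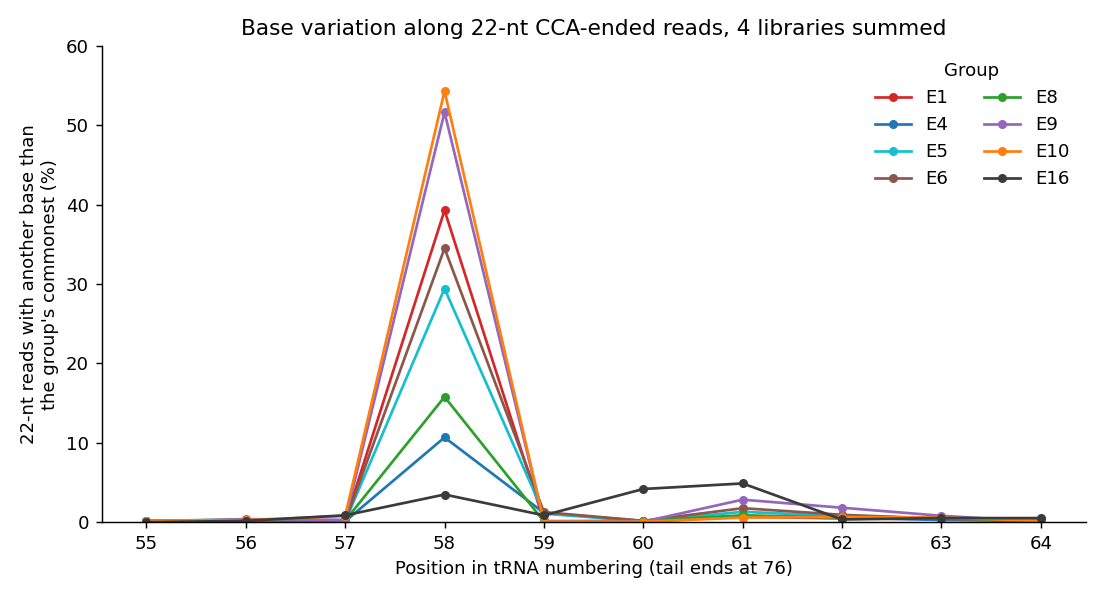
Share of 22-nt reads with another base than the group's commonest (%) at each position from 55 to 64 in tRNA numbering, over the 4 libraries, for 8 groups of CCA-ended reads. E1, E4, E5, E6, E8, E9 and E10 have a single peak at position 58, from 10.7% (E4) to 54.3% (E10), and E16 has none.

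The base at 58 differed between libraries by less than it did between groups. In E1 the share of A was 58.9% in HSC, 59% in imDC and 68.0% in maDC, and 70.9% in DCreg. In E9 it was 44.6%, 48.6%, 53.9% and 54.4%, and in E8 83.8%, 81.9%, 88.2% and 88.1%. In these 3 groups A, the base of the gene, was more frequent in maDC and DCreg than in HSC and imDC. The DCreg values of E8 (193 reads, 82.7% to 92.3%) and E9 (206 reads, 47.3% to 61.3%) have wide intervals. They include the HSC value of E8 and the imDC value of E9. E17, where A is also the gene's base, went the other way, with 62.1% of 232 reads, 58.4% of 166, 36.7% of 30 and 33.3% of 9. E16, again with A in the gene, was highest in HSC, with 98.7% of 230 reads, 93.9% of 132, 95.5% of 154 and 96.5% of 57. Groups read mostly with T had no common order: T was 88.4%, 89.7%, 90.2% and 90.8% in E4, while A was 33.7%, 22.1%, 14.2% and 22% in E5 and 36.1%, 28.6%, 24.7% and 35.3% in E6. Reads of 18 nt or less do not reach position 58, and modification of the base was not measured.

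The state of the tail was examined by counting reads with the same 12 bases before it and a full or partial tail. Since a shortened tail makes a short read shorter and pushes it out of the file, the counts below keep reads with at least 16 nt before the tail, a choice made after seeing the data. In the groups matched to a tRNA gene, the full CCA was present in 95.5% of 53801 such reads in HSC, 96.4% of 36261 in imDC and 99.1% of 19138 in maDC, and 98.0% of 6937 in DCreg. Reads with 0 to 2 tail bases made up 4.33%, 3.32%, 0.643% and 1.48%. With reads of any length the shares were 3.57%, 2.57%, 0.613% and 0.652%. Short tails were thus rare, and rarer in maDC and DCreg than in HSC and imDC in both versions.

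The order was much the same in the 10 highest groups. The share of reads with 0 to 2 tail bases was lower in imDC than in HSC in 9 of 10, with E2 the exception, and lower in maDC than in imDC in 9 of 10, with E3 the exception. It was lower in DCreg than in maDC in E2 alone. With reads of any length, as first planned, the counts were again 9 and 9 of 10, but DCreg was lower than maDC in 5 of 10, and E1 had 0.524% in maDC and 0.537% in DCreg. The highest value after E10 was in E6, at 17.1% in HSC, 12.4% in imDC and 1.22% in maDC, and 2.45% in DCreg, or 2467 of 14412 reads in HSC and 15 of 613 in DCreg. In E1 the shares were 3.12%, 2.73%, 0.529% and 2.10%.

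E10 stood apart. Its reads with at least 16 nt before the tail carried the full CCA in 10.8% of 5289 in HSC and 11.5% of 5043 in imDC and but in 92.7% of 785 in maDC, and 88.1% of 286 in DCreg. The CC ending held 39.3% in both HSC and imDC and 1.53% and 1.75% in maDC and DCreg. Summed over all tails, these E10 reads stood at 843, 769, 119 and 58.3 rpm. The reads with a full tail stood at 90.8, 88.8, 111 and 51.4, so a level taken from CCA ends alone did not follow the sum.

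**Figure D5:**
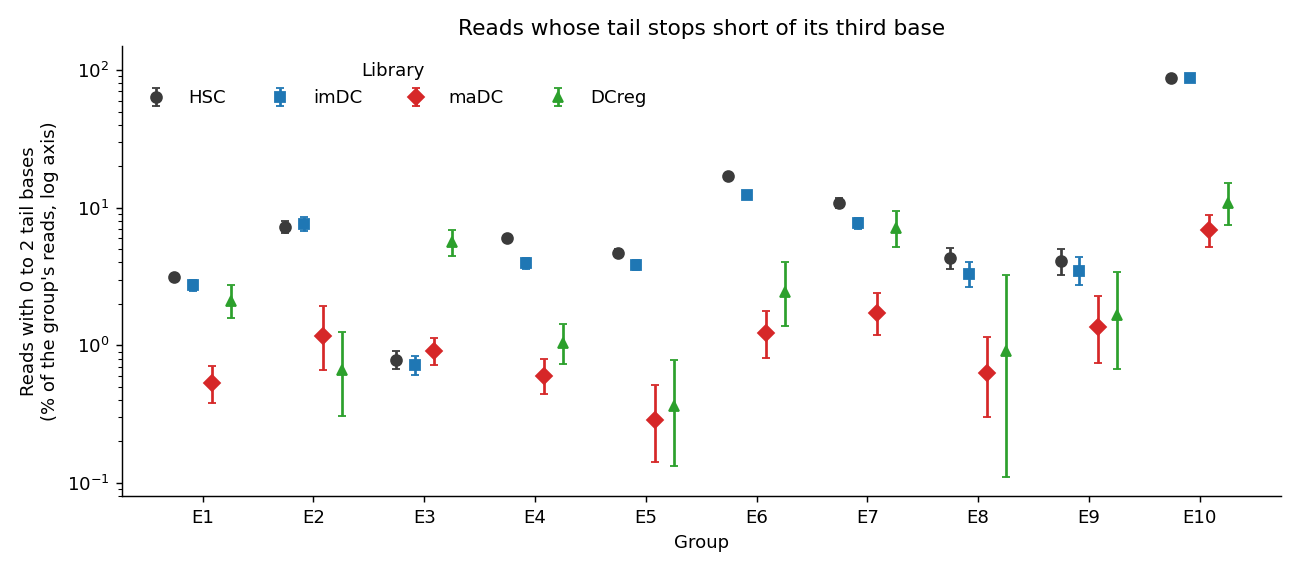
Share of each group's reads with 0 to 2 bases of the tail (%, log axis) in the 4 libraries, for the 10 highest groups and reads with at least 16 nt before the tail, with exact 95% intervals. E10 is at 88.0% in HSC and 6.88% in maDC, and E6 at 17.1% in HSC and 1.22% in maDC.

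A repeated tail, CCACCA, which marks unstable tRNAs for decay, was not seen after the gene-matched ends, with 0 of 53801, 36261, 19138 and 6937 reads from HSC to DCreg, which allows up to 0.00558%, 0.00827%, 0.0157% and 0.0432%.

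The labels were set beside miRNA markers from the authors' table, in parts per 1000000 of a library's deposited scores. A list of 5 dendritic and myeloid miRNAs summed to 28630 in HSC, 103616 in imDC and 83068 in maDC, and 46737 in DCreg. Most of the dendritic sums was miR-146b-5p (6182, 89225, 67585 and 36546 from HSC to DCreg), while miR-223-3p (3438, 2264, 635 and 669) and miR-142-5p (18959, 9513, 13196 and 9377) were highest in HSC and miR-511-5p was at or below 5.33 in all. The fifth, miR-155-5p, stood at 47.6, 2609, 1651 and 141, so it was much lower in DCreg than in imDC and maDC. A list of 3 erythroid miRNAs summed to 13763 in HSC and to at most 19.0 in the dendritic libraries, and the lymphoid miR-150-5p stood at 914 in HSC and at most 17.1 elsewhere. A list of 5 HSC and progenitor miRNAs summed to 2727 in HSC and 2763 in DCreg, mostly miR-10a-5p (2193 and 2042). Within it miR-196b-5p (251 and 12.5) and miR-126-3p (49.2 and 0.367) were lower in DCreg, and miR-125b-5p (58 and 363) and miR-99a-5p (175 and 345) higher. The part of erythroid or lymphoid cells in the HSC values of the members was not tested. A list of 3 stromal or endothelial miRNAs summed to 1057, 61.3, 162 and 235. From maDC to DCreg its members went different ways. miR-143-3p was higher in DCreg (386, 12.9, 40.9 and 155 from HSC to DCreg). Lower there were miR-199a-3p (622, 46.5, 120 and 79.6) and miR-126-3p (49.2, 1.90, 1.12 and 0.367).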

How the data were processed

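The 4 populations gave 1 Solexa small RNA library each. Per the labels' protocols, RNA was gel purified, ligated to adaptors and amplified for 12 cycles, and reads were filtered against tRNA and other RNA classes and compared with miRBase release 19. No aligner or mismatch limit is given in the sources used here. The authors deposited, for each library, unique sequences with whole-number read counts, 4904897 to 6572858 reads per file. Whether every read was deposited is not stated. The series table holds a score per mature miRNA, deposited as normalized counts by a method not given. It was used for the miRNA sequences and the marker check.

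Reads ending in CCA without a 16-base stretch of a mature miRNA were counted, per 1000000 reads of the file, with Python 3.11.15, NumPy 2.4.6 and SciPy 1.17.1. Groups share the last 12 bases. Intervals are Poisson for levels, Clopper-Pearson for shares and conditional on both counts for ratios, at 95%. A share of 0 allows up to 3 reads. Named groups are the 10 with the highest mean, the 3 highest of each library and the 2 largest ratios in each direction of each comparison; E14, E22, E23 and gene-matched groups were named by these rules, in the version without neighbouring groups, or by the gene match. The counting was tested on simulated data. The members and lists were chosen with earlier results of these data known. Gene ends came from GENCODE vM21 (GRCm38) transcripts and RefSeq GRCm38.p6 promoter windows. Alternatives are in the closing section. tRNAs without a readable end were not analysed here by name.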

Additional observations from a re-analysis of the deposited data

How the results depend on the processing

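No paired analysis was possible because each population has 1 library, and no replicate could be left out. A match of each read to the genome was planned and not run, as no genome was used here. Of the other alternatives, those marked as added were chosen after seeing the data. Removing sequences that share 14 bases with a miRNA, or grouping by the last 15 bases, moved none of the summary values beyond counting error or 1.5 times.

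Levels (main 0.966, 0.614, 1.76 and 1.08 for imDC/HSC, maDC/imDC, DCreg/maDC and DCreg/imDC) were 0.895, 0.525, 1.03 and 0.543 with 18 to 30 nt, 0.956, 0.619, 1.78 and 1.10 with at least 10 copies, 0.991, 0.589, 1.84 and 1.09 scaled to miRNA reads and 0.846, 0.763, 1.37 and 1.04 scaled to reads without a miRNA stretch. With a 20-base stretch imDC/HSC was 0.975, maDC/imDC 0.606 and DCreg/imDC 1.06. Without members whole in a transcript (added) they were 0.952, 0.599, 1.77 and 1.06. Without members near a miRNA (added) imDC/HSC was 0.954, maDC/imDC 0.624 and DCreg/imDC 1.10. DCreg/imDC alone changed direction, with 18 to 30 nt, where the 17-nt reads are left out.

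The 22-nt shares from HSC to DCreg were 78.3%, 65.2%, 50.5% and 19.0% with 18 to 30 nt and 67.7%, 52.9%, 35.8% and 7.83% without members whole in a transcript. They were 67.5%, 52.2% and 34.5% in HSC, imDC and maDC with at least 10 copies, 66.0% and 50.9% in HSC and imDC with a 20-base stretch, and 50.5% in imDC without members near a miRNA. The order of the libraries was the same in each.

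Counts of called groups moved most with the level needed. At 3 rpm they were 64 higher and 32 lower for imDC/HSC, 14 and 123 for maDC/imDC, 68 and 17 for DCreg/maDC and 44 and 109 for DCreg/imDC; at 30 they were 10 and 1, 2 and 23, 15 and 3, and 11 and 21. Groups by the last 10 bases gave 2 lower for imDC/HSC. With 18 to 30 nt, 18 were higher for DCreg/maDC and 12 for DCreg/imDC, and scaled to reads without a miRNA stretch 20 were higher for DCreg/maDC. Without neighbouring groups (added) the counts that moved were 18 higher and 1 lower for imDC/HSC, 32 lower for maDC/imDC, 21 higher for DCreg/maDC, and 12 higher and 29 lower for DCreg/imDC.

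The exact T-loop motif in reads of at least 23 nt went to 26.4%, 10.6%, 6.78% and 22.7% when 1 fixed base could differ, to 7.52%, 5.69% and 15.1% in imDC, maDC and DCreg with each sequence counted once, and to 98.3%, 96.8%, 97.0% and 95.1% in the 22-nt version (added). The full-tail share over all groups, 89.2%, 84.0%, 82.7% and 78.7% as planned, was 88.3%, 82.3%, 77.3% and 73% with 15 bases before the tail and 88.7%, 82.6%, 71.1% and 48.8% with at least 16 nt before it (added). In that version reads without any tail base, which include ends of RNAs other than tRNA, were 34.1% in DCreg. In the gene-matched groups the planned full-tail share was 95.5%, 95.2%, 95.5% and 93.9%.

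Of single groups called different, 2 values reversed: E1 for DCreg/maDC, at 0.630 with 18 to 30 nt, and E10 for DCreg/imDC, at 0.723 without members whole in a transcript. A further 5 calls were lost, and 1 was gained without a change of direction. Another 16 values, not called, crossed 1. With 18 to 30 nt these were E3 for DCreg/maDC (1.21 to 0.429) and E1 for DCreg/imDC (1.90 to 0.358), both then past 2-fold, and E8 for DCreg/maDC (1.13 to 0.864). The remaining 599 were the same. Depth limits the groups under 10 rpm, where 1 to 3 reads decide a ratio.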

Other observations

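Reads with an extra base after a full tail were counted for the gene-matched ends at all lengths. A further A was present in 0.410% of reads in HSC, 1.41% in imDC and 2.47% in maDC, and 3.10% in DCreg, and a further T in 0.546%, 0.806%, 1.39% and 2.20%. After the end of E1 the shares were 0.551%, 1.83%, 3.13% and 3.48% for A and 0.705%, 1.01%, 1.69% and 2.39% for T. Both were lowest in HSC and highest in DCreg at all lengths. In reads with at least 16 nt before the tail, the full and short tails given above held nearly all reads of each library. Extra bases were thus rare in those longer reads, and the part of read length in this order was not tested. E15, which differs from E1 by G67A, held 0.374%, 1.35%, 1.55% and 3.24% as many reads as E1.

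Some reads with a miRNA stretch also end in CCA, and 653 CCA-ended sequences were removed by the 16-base rule. Reads matching miR-23a-3p and miR-23b-3p alike made up 4743 of the 16369 removed in HSC, 22381 of 40151 in imDC and 4467 of 14093 in maDC, and 2656 of 8114 in DCreg. Reads of miR-192-5p made up 6041, 9983, 6974 and 3010.

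Single substitutions in the 10 commonest 22-nt miRNA reads, which are no members, were not even along the read. At place 14 they were 1.05% of the exact reads in imDC, against 0.167%, 0.0952% and 0.149% in HSC, maDC and DCreg. At place 11 they were 0.672% in HSC, against 0.219%, 0.182% and 0.111% in imDC, maDC and DCreg. E84, which differs from E3 at place 14 of a 22-nt read, had 143 reads in imDC and 15 in HSC, and E68, which differs from E1 at place 11, had 130 in HSC and 16 in imDC.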
